A study of Mus musculus with 128 samples.

Results

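Cdsn, Slc15a2, Ehd3, Proser2, Sctr and Lvrn are 6 of the 15099 genes listed in the expression tables of a study of brown fat in obese SM/J mice. They were picked because their level rose between 20 and 30 weeks of age in the interscapular brown adipose tissue (BAT) of high-fat SM/J mice. They were chosen by their levels in those 16 libraries, with no stated threshold, so that rise is described below and not tested. The study's title sets the growth of this tissue beside a return of glucose control in the obese mice.

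The mice were SM/J or LG/J, both inbred strains, female or male, 20 or 30 weeks old, and on a diet labelled highfat or lowfat. From them the interscapular BAT and the reproductive white adipose tissue (WAT) were taken, and total RNA depleted of ribosomal RNA was sequenced. Each of the 32 combinations of strain, diet, age, sex and tissue held 4 biological replicates, 128 libraries in all. No transgene, deletion or drug is named in the labels, the LG/J and low-fat mice being the other arms of the same design, and the composition of the diets is not given in the sources used here. The values are the authors' normalised counts, in 1 table of 16 libraries for each strain, diet and tissue. They are given here as CPM, the normalised count divided by the library's total and multiplied by 1000000.

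The genes encode proteins of unrelated classes. Sctr encodes the secretin receptor, a receptor coupled to the stimulatory G protein and cyclic AMP; secretin released from the gut after a meal is known to act on it in brown adipocytes. Slc15a2 encodes PEPT2, a proton-coupled carrier that brings di- and tripeptides into cells, and Lvrn encodes laeverin, a membrane aminopeptidase of the M1 family best known from placental trophoblast. Ehd3 encodes an EH-domain ATPase of endocytic recycling. Cdsn encodes corneodesmosin, an adhesive glycoprotein of the desmosomes in the outermost layers of the skin. Proser2 encodes a proline- and serine-rich protein whose function is little known. Brown adipocytes burn fuel for heat through Ucp1, the mitochondrial uncoupling protein, whereas lipid-storing adipocytes secrete leptin, the product of Lep; both genes are given for reference.

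In mm10, Sctr lies at chr1:120006894-120063536 on the plus strand with 2012 exonic bases. Slc15a2 lies at chr16:36750177-36784962 on the minus strand with 7361 exonic bases, and a processed pseudogene, Gm8425, lies on its other strand. Ehd3 (chr17:73804134-73832094, plus strand, 6558 exonic bases) and Cdsn (chr17:35552128-35557180, plus strand, 2678 exonic bases) share a chromosome without being neighbours. Proser2 lies at chr2:6097607-6130211 on the minus strand with 9563 exonic bases. Whether strand was used in counting is not given in the sources used here, and whether Gm8425 overlaps an exon of Slc15a2 was not examined. Reads of Gm8425 may therefore be counted with those of Slc15a2.

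Because these genes were chosen for moving together, the 250 bases before the annotated start are shown for the 4 with an entry in the RefSeq promoter table (GRCm38.p6): Cdsn at chr17:35551878-35552127 (plus strand), Slc15a2 at chr16:36784963-36785212 (minus strand), Ehd3 at chr17:73804591-73804840 (plus strand) and Proser2 at chr2:6130186-6130435 (minus strand), each read 5′ to 3′ toward the start. Capitals mark matches, on either strand, to TGACG (the core of a cyclic AMP response element), to AGGTCA (the core of a nuclear receptor site), to the CCAAT box, to the TATA box spelled TATAAA, to the GC box spelled GGGCGG, or to the E-box spelled CANNTG. Cdsn has a second listed start, 9027 bases upstream, whose window is not shown. The listed starts of Ehd3 and Proser2 lie 707 and 26 bases inside the spans given above. The whole Ehd3 window thus lies within that gene's span.
Cdsn: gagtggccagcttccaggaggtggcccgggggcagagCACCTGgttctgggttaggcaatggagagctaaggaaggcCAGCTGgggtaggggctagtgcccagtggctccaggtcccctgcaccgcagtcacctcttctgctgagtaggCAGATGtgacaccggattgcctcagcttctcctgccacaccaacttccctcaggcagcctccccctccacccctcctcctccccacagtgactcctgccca
Slc15a2: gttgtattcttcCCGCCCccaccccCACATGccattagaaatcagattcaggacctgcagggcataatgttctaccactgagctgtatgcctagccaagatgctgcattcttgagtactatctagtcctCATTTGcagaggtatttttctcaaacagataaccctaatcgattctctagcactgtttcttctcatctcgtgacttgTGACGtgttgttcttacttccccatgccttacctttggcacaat
Ehd3: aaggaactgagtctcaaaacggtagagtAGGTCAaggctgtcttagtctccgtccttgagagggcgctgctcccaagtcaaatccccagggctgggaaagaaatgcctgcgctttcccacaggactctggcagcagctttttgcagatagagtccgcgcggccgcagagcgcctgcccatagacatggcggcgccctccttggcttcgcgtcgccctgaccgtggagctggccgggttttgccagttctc
Proser2: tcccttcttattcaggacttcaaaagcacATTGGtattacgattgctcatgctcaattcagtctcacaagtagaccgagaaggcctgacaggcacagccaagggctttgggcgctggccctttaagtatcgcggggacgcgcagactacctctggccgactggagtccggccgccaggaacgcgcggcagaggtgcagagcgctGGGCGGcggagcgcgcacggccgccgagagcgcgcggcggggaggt

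No motif was found in all 4 windows. Slc15a2 held the one TGACG match, 44 bases before its start, a motif present in 17.8% of the 32851 windows of the same length. Ehd3 held the one AGGTCA match, 222 bases before its listed start and within the gene's span, against 14.0% of windows. Proser2 held a CCAAT match (33.8% of windows) and, like Slc15a2, a GC box (32.7%). The Cdsn window held 3 E-boxes and Slc15a2 held 2; 66.2% of windows held at least 1. TATAAA, found in 12.4% of windows, was in none of the 4.

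The normalised counts of a library summed to between 16293526 and 21799085, and the tables listed 12716 to 14110 genes each, none with a mean under 15.2. The 6 genes were listed in every table except for Proser2 in SM/J high-fat WAT, which leaves 47 gene and table pairs. BAT libraries matched their label: Ucp1 stood between 2901 and 9229 CPM in the BAT libraries and between 0.363 and 323 CPM in the WAT libraries. RNA from bulk tissue was measured, so fewer cells of a type and less RNA per cell cannot be told apart in any value below.

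In SM/J high-fat BAT the 6 genes were higher at 30 than at 20 weeks by 0.74 to 1.14 on the log2 scale, 8 libraries at each age. Each gene had 8 of 8 libraries at 30 weeks above the median at 20 weeks. The libraries of the ages did not overlap for Cdsn, Proser2 and Sctr, as for 0.211% of all genes in that direction, and overlapped for Slc15a2, Ehd3 and Lvrn. These values are those that chose the genes. By the same fit 98 of the 13252 genes in this table (0.74%) passed an adjusted p of 0.05 as higher at 30 weeks, and nothing is read from where the 6 stand among them.

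Sctr, the hormone receptor, was the least variable at 20 weeks. Its level was 6.14, 6.58, 6.58 and 7.09 CPM in the 20-week females and 4.47, 5.81, 6.12 and 7.61 CPM in the 20-week males. At 30 weeks it was 8.35, 9.46, 11.6 and 11.9 CPM in females and 8.91, 9.99, 10.6 and 15.6 CPM in males. The lowest library at 30 weeks was above the highest at 20 weeks, and the means were 6.30 ± 0.939 and 10.8 ± 2.30 CPM (SD, n = 8 each).

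Slc15a2, the peptide carrier, was the gene in which the sexes stood furthest apart. Females had 5.50, 8.29, 13.8 and 16.5 CPM at 20 weeks and 16.1, 18.3, 18.8 and 21.2 CPM at 30 weeks. Males had 3.41, 3.43, 7.55 and 8.30 CPM at 20 weeks and 12.1, 13.7, 14.3 and 14.6 CPM at 30 weeks. Within males the ages did not overlap, while the highest 20-week female lay among the 30-week females. Means went from 8.35 ± 4.69 to 16.2 ± 3.05 CPM (SD, n = 8 each).

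Lvrn, the aminopeptidase, lies in mm10 at chr18:46850038-46907242 on the plus strand with 5275 exonic bases. An snRNA gene, Gm23610, overlaps its span on the same strand, and whether it overlaps an exon was not examined. Its level went from 4.17, 4.33, 4.35 and 5.98 CPM in 20-week females to 6.02, 6.55, 6.72 and 8.23 CPM in 30-week females, 2 sets that just missed each other. Males went from 2.79, 3.24, 4.70 and 7.07 CPM to 6.93, 7.92, 8.05 and 10.3 CPM, and the highest 20-week male lay above the lowest 30-week male.

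Ehd3, the endocytic recycling ATPase, stood at 12.8, 14.3, 16.8 and 23.8 CPM in 20-week females and at 27.7, 33.0, 33.2 and 34.6 CPM in 30-week females. Males had 8.99, 10.2, 17.2 and 18.8 CPM at 20 weeks and 20.0, 24.4, 29.7 and 30.1 CPM at 30 weeks. Within each sex the ages were apart, and they overlapped only across sexes, through the highest 20-week female.

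Cdsn, the corneodesmosin gene, changed most. It stood at 15.1, 15.2, 24.1 and 29.0 CPM in 20-week females and 14.6, 19.4, 21.6 and 22.2 CPM in 20-week males. At 30 weeks it stood at 35.7, 39.9, 47.0 and 49.0 CPM in females and 29.4, 44.7, 54.0 and 60.2 CPM in males. The means were 20.2 ± 5.08 and 45.0 ± 9.93 CPM (SD, n = 8 each), a difference of 1.14 (SE 0.148) in log2(value + 1). Proser2 ran from 5.39 to 11.6 CPM (median 7.64) at 20 weeks and from 12.7 to 17.1 CPM (median 13.8) at 30 weeks, the narrowest 30-week range relative to its level.

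**Figure D1:**
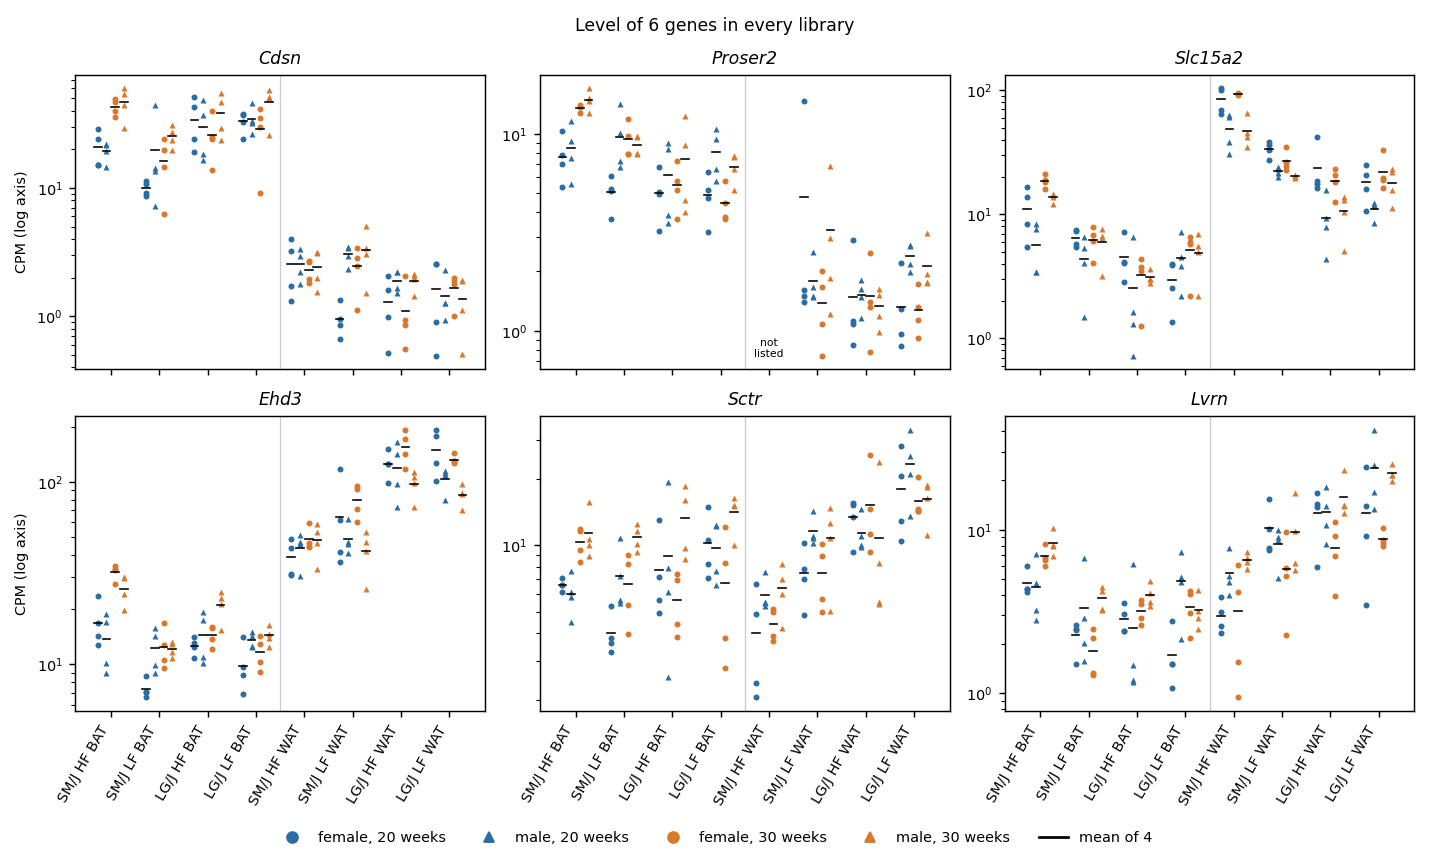
CPM of each gene (log axis) in every library, by strain, diet (HF, high-fat; LF, low-fat) and tissue; circles are females, triangles males, blue 20 weeks, orange 30 weeks, and each black line is the mean of 4 libraries. In SM/J high-fat BAT the orange points of Cdsn (29.4 to 60.2 CPM) lie above the blue ones (14.6 to 29.0 CPM), while in LG/J BAT the colours mix.

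Other cell types were looked for among the same 16 libraries. Of 12 keratinocyte markers 2 were listed, with summed levels of 3.47 to 5.49 CPM at 20 weeks and 3.30 to 5.43 CPM at 30 weeks; Krt5, Krt14 and Krt1 were not listed. Macrophage markers (12 of 12 listed) summed to 636 to 744 CPM at 20 weeks and 529 to 837 CPM at 30 weeks. Of them only Itgam and Mmp12 passed the adjusted test, as lower at 30 weeks. The others did not pass, Adgre1 among them with a positive estimate (0.15, limma-trend adjusted p = 0.428). In this fit 193 of the 13252 genes passed in either direction, 98 of them as higher. Skeletal muscle markers ran from 32.4 to 1740 CPM (median 441) at 20 weeks and from 9.33 to 1883 CPM (median 38.2) at 30 weeks. Fibroblast markers ran from 1393 to 2202 and from 1066 to 1941 CPM, and of them only Ly6a passed the adjusted test, as lower at 30 weeks (-0.59). The part of these cells in the rise of the 6 genes was not tested. Ucp1 stood at 4842 CPM at 20 weeks and 4358 CPM at 30 weeks (limma-trend, adjusted p = 0.405), and Lep at 492 and 945 CPM (adjusted p = 0.0694).

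In the 7 tables that did not choose the genes, none of the 41 tests of 30 against 20 weeks passed (limma-trend, Benjamini-Hochberg adjusted p over all genes of a table). Of these 41, 6 had an unadjusted p below 0.05, with 24 differences upward and 17 downward. By table, 3.13 to 14.6% of all genes had such a p. The background is low: the share of all genes called with age was 0.0358% in SM/J high-fat WAT and 0% in the other 6 tables. The plot of age changes shows the open symbols around 0 beside the libraries that chose the genes.

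SM/J low-fat BAT, which shares the strain and the depot, held 4 of those 6 unadjusted values, in a table where 14.6% of all genes had one. All 6 genes had a positive estimate there, where the median over all genes was 0.0028. Sctr had the largest, 5.63 ± 2.45 CPM at 20 weeks and 8.75 ± 2.89 CPM at 30 weeks (SD, n = 8 each), a log2 difference of 0.65 (SE 0.173) with limma-trend adjusted p = 0.159. By library, Sctr stood at 3.29, 3.60, 3.78 and 5.31 CPM in 20-week females, 5.45, 5.62, 7.25 and 10.8 CPM in 20-week males, 3.96, 5.33, 8.25 and 9.06 CPM in 30-week females and 9.31, 10.1, 11.5 and 12.4 CPM in 30-week males. The highest 20-week male, replicate 650, lay among the 30-week males. Without it the difference was 0.75 with limma-trend adjusted p = 0.0316, in a fit in which 258 genes passed. Taking out the highest 20-week library raises this difference by construction. In the other 15 of the 16 fits that left out 1 library each, Sctr did not pass. Over the 16 fits the difference ran from 0.58 to 0.75.

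Cdsn in SM/J low-fat BAT went from 14.9 ± 12.1 to 20.8 ± 7.75 CPM (SD, n = 8 each; log2 difference 0.61, SE 0.284, limma-trend adjusted p = 0.335). One 20-week male, replicate 542, stood apart at 44.2 CPM against 7.24 to 14.4 CPM in the other 7 libraries of that age. The same library was also the highest of its age for Proser2 (14.2 CPM), Ehd3 (15.7 CPM) and Lvrn (6.75 CPM). Ehd3 went from 9.78 ± 3.44 to 12.3 ± 2.22 CPM (limma-trend adjusted p = 0.241) and Proser2 from 7.31 ± 3.35 to 9.08 ± 1.45 CPM (adjusted p = 0.302). Slc15a2 (5.41 and 6.12 CPM) and Lvrn (2.79 and 2.81 CPM) had nearly equal means at both ages.

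With females alone in SM/J low-fat BAT, Ehd3 (0.74, SE 0.168, limma-trend adjusted p = 0.0432) and Proser2 (0.89, SE 0.192, adjusted p = 0.0385) passed, in a fit that called 1.35% of genes as higher at 30 weeks. The 4 and 4 libraries did not overlap for either gene, as for 4.64% of all genes in that direction. Females had 6.59, 7.04, 7.05 and 8.62 CPM of Ehd3 at 20 weeks and 9.53, 10.6, 12.7 and 16.8 CPM at 30 weeks. Males alone gave 0.033 for Ehd3 and -0.062 for Proser2. The difference between the sexes did not itself pass for either gene, nor for any other (0% called): the estimate for Ehd3 was -0.70 (SE 0.246, males minus females, limma-trend adjusted p = 0.582) and that for Proser2 had an adjusted p of 0.569.

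In LG/J BAT, Cdsn stood at 32.1 ± 14.2 and 32.1 ± 13.6 CPM at 20 and 30 weeks on the high-fat diet (SD, n = 8 each) and at 33.7 ± 6.91 and 37.7 ± 16.1 CPM on the low-fat diet. Ehd3 in LG/J high-fat BAT had the lowest unadjusted p, 13.6 ± 3.30 against 17.8 ± 4.68 CPM with a log2 difference of 0.33 (SE 0.129, limma-trend adjusted p = 0.974). In WAT, Slc15a2 in LG/J low-fat mice went from 14.6 ± 5.66 to 19.9 ± 6.42 CPM (0.48, SE 0.193, limma-trend adjusted p = 0.76).

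**Figure D2:**
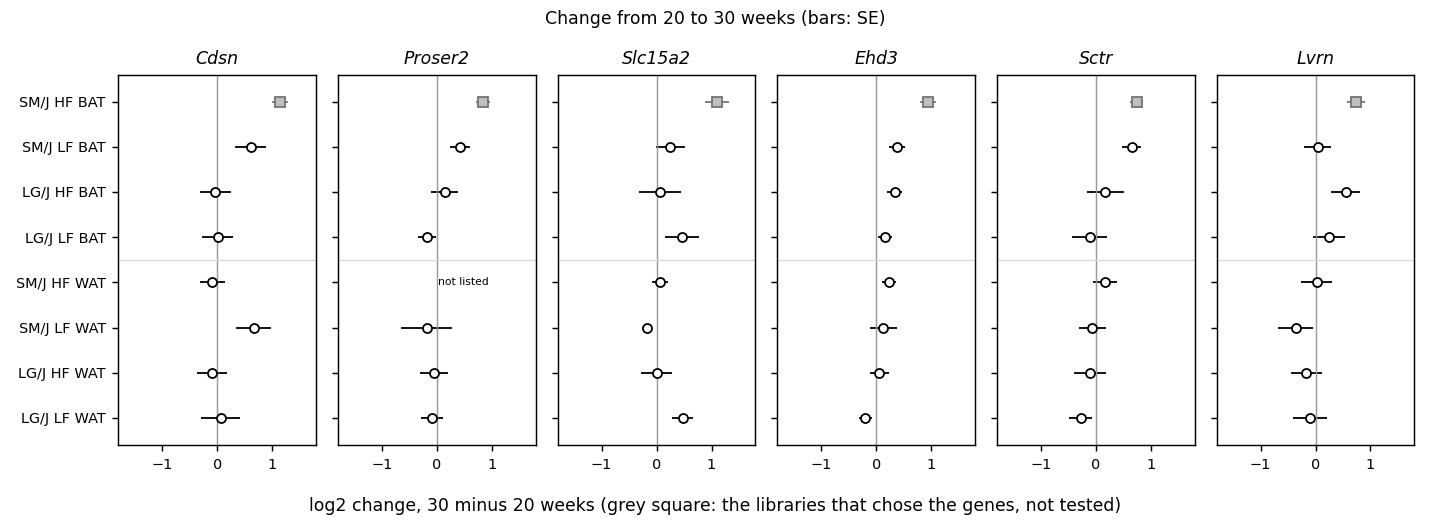
Log2 change from 20 to 30 weeks (± SE, limma-trend) of each gene in each table; the grey square is SM/J high-fat BAT, whose libraries chose the genes, and open circles have an adjusted p of 0.05 or more. All 41 circles are open, and in SM/J low-fat BAT they lie between 0.044 (Lvrn) and 0.65 (Sctr).

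Whether the age change differed between depots was tested within low-fat SM/J mice and within LG/J mice of either diet, without pairing by replicate number. None of 18 tests passed, and no gene of any kind passed in the 3 fits (0% called). One had an unadjusted p below 0.05, near the 5.03% of all genes in that fit (2.41 and 3.51% in the other 2): the age change of Sctr was 0.72 higher (SE 0.309) in BAT than in WAT of SM/J low-fat mice (limma-trend adjusted p = 0.951).

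The genes split by depot into 3 patterns. Cdsn and Proser2 were higher in BAT, Slc15a2 and Ehd3 were higher in WAT, and Sctr and Lvrn were on the WAT side in 3 of the 4 strain and diet sets. Each table was deposited on its own, and whether they share a scaling is not given in the sources used here, so levels between them are compared by overlap alone, without a test. The median gene was 0.24 to 0.40 lower in BAT than in WAT on the log2 CPM scale. Of the shared genes 11, 8.44, 11.8 and 10.7% had 16 BAT libraries all above the 16 WAT libraries in SM/J mice on the high- and low-fat diets and then in LG/J mice on the same diets, and 25.7, 26.5, 26.8 and 21.9% all below; with TMM scaling factors, which bring the median gene to about 0, these shares were 15.7, 15, 18.2 and 16.6% above and 19.4, 14.8, 18.7 and 14.1% below. BAT and WAT libraries share replicate numbers, which the labels do not tie to an animal; the differences are also given per number, 16 in each set, as a description.

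Cdsn was higher in BAT for 16 of 16 numbers in every set, without overlap in any. Its mean was 32.6 ± 14.9 CPM in BAT and 2.46 ± 0.776 CPM in WAT of SM/J high-fat mice (SD, n = 16 each). In LG/J low-fat mice it was 35.7 ± 12.2 and 1.52 ± 0.674 CPM, a 22.6-fold difference of geometric means and the largest of the 4 sets. Per kilobase of exon it was also the highest of the 6 genes in each BAT table, at 6.68 to 13.3 CPM per kilobase. Cdsn was already 7.83-fold higher in BAT than in WAT at 20 weeks in SM/J high-fat mice.

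Proser2 was higher in BAT for 16 of 16 numbers on each diet in LG/J mice and for 15 of 16 in SM/J low-fat mice. LG/J means were 6.02 ± 2.54 CPM in BAT against 1.46 ± 0.564 CPM in WAT on the high-fat diet (SD, n = 16 each), without overlap. The one exception, replicate 699 of the SM/J low-fat females, had 14.7 CPM in WAT, where 14 of the other 15 libraries held 0.746 to 2.97 CPM. That library also had the highest summed level of 9 smooth muscle genes, 8201 CPM, and replicate 631, the next highest for Proser2 at 6.90 CPM, had 6445 CPM; the other 14 had 636 to 1323 CPM. The list of smooth muscle genes was added after these values were seen, and its part in the Proser2 levels was not tested.

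Slc15a2 was higher in WAT for all 16 numbers in every set, by a median of 2.05 to 2.31 on the log2 CPM scale. The mean ran from 68.3 ± 25.2 CPM in SM/J high-fat WAT to 3.36 ± 1.76 CPM in LG/J high-fat BAT (SD, n = 16 each). Even the 30-week SM/J high-fat BAT libraries, at most 21.2 CPM, lay below all 16 WAT libraries of those mice, the lowest of which held 30.8 CPM. Ehd3 was also higher in WAT for all 16 numbers in each set, with the smallest median difference, 1.06, in SM/J high-fat mice and the largest, 3.22, in LG/J high-fat mice. Its means were 22.2 ± 8.51 CPM in BAT and 44.7 ± 9.14 CPM in WAT of SM/J high-fat mice, which overlapped, and 15.7 ± 4.49 and 124.8 ± 34.5 CPM in LG/J high-fat mice, which did not.

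Sctr and Lvrn were the 2 genes whose side differed between the sets. Sctr was higher in BAT for 14 of 16 numbers in SM/J high-fat mice, for 3 of 16 in SM/J low-fat mice, and for 4 and 2 of 16 in LG/J mice on the high- and low-fat diets. With TMM scaling factors the mean log2 difference of Sctr in SM/J low-fat mice, BAT minus WAT, went from -0.41 to -0.032. Lvrn was higher in BAT for 12 of 16 numbers in SM/J high-fat mice and for 1, 0 and 0 of 16 in the other 3 sets. The high-fat SM/J set holds the BAT libraries that chose both genes, and its WAT was also low: Sctr there was 5.19 ± 1.72 CPM, the lowest of the 8 tables, against 9.31 ± 3.17 CPM in SM/J low-fat WAT and 18.3 ± 6.34 CPM in LG/J low-fat WAT (SD, n = 16 each). Lvrn in WAT stood at 4.52 ± 2.05, 8.44 ± 3.73, 12.3 ± 4.88 and 16.9 ± 9.46 CPM, from SM/J high-fat and SM/J low-fat to the same diets of LG/J.

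**Figure D3:**
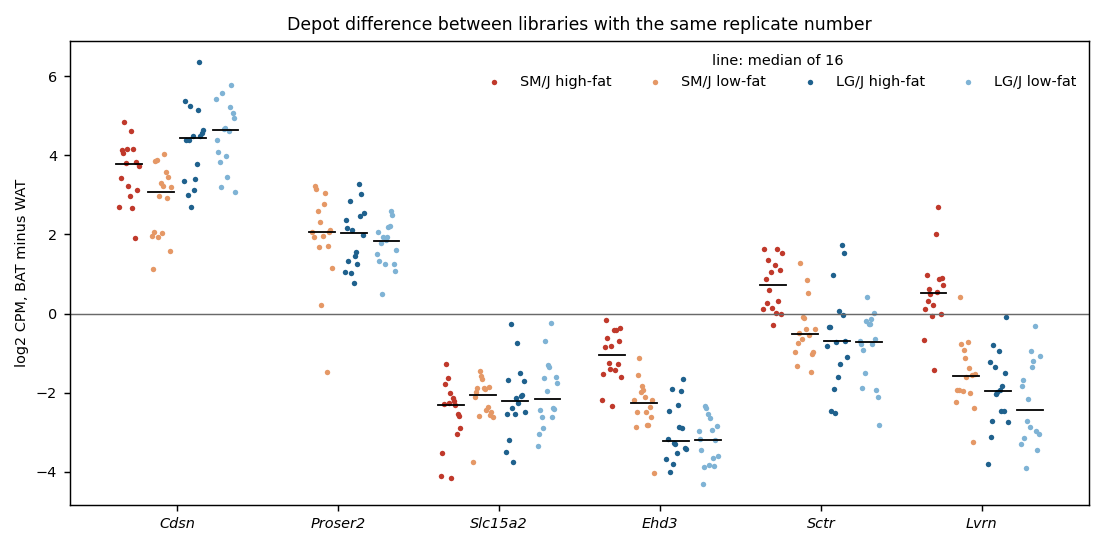
Log2 CPM in BAT minus log2 CPM in WAT for each replicate number (points), by gene and by strain and diet, with a line at the median of the 16. Cdsn lies above 0 and Slc15a2 and Ehd3 below 0 for all 16 numbers in the 4 sets, while Sctr and Lvrn lie mostly above 0 only in SM/J high-fat mice (medians 0.73 and 0.52).

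Across the 8 tables, each gene had its own order of levels. For Cdsn the BAT tables of LG/J low-fat (35.7 CPM), SM/J high-fat (32.6 CPM) and LG/J high-fat mice (32.1 CPM) did not differ beyond their SD, and SM/J low-fat BAT stood below them at 17.9 ± 10.3 CPM. For Slc15a2 the order was led by SM/J high-fat WAT, SM/J low-fat WAT (25.8 ± 6.22 CPM) and the WAT of LG/J low-fat (17.3 CPM) and LG/J high-fat mice (15.6 CPM), the last 2 not differing beyond their SD. In BAT, Slc15a2 stood at 12.3 ± 5.56 CPM in SM/J high-fat mice and beyond the SD lower, at 5.77 ± 1.79 CPM, in SM/J low-fat mice, with libraries that overlapped. The SM/J high-fat BAT libraries chose the genes, so nothing is read from where that table stands in any of these orders. Ehd3 fell in 3 steps, the LG/J WAT tables, the SM/J WAT tables and then BAT, with neighbours inside each step not differing beyond their SD. Proser2 fell from 11.1 ± 3.65 CPM in SM/J high-fat BAT through 8.19, 6.04 and 6.02 CPM in the other BAT tables, before WAT. Each of these BAT means was within the SD of the next, while the first and last were not compared.

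By diet, none of the 6 genes separated the 16 high-fat from the 16 low-fat libraries in SM/J BAT, where 0.525% of all genes did as higher. At 20 weeks none did either (8 against 8), against 2.36% of all genes as higher on the high-fat diet. The high-fat libraries of both ages chose the genes, those at 20 weeks by being low, so nothing is read from a contrast between the ages. At 30 weeks, where the high-fat libraries are those that chose the genes, 4 of 6 lay wholly above the low-fat libraries, against 8.99% of genes: Lvrn 2.84-fold, Slc15a2 2.68-fold, Ehd3 2.35-fold and Proser2 1.57-fold. The median gene was itself 0.22 higher (log2) in that comparison, and with TMM scaling factors, which remove this shift, 3 of 6 did, against 2.83% of genes wholly higher and 3.89% wholly lower (8.99 and 1.83% without them). In LG/J mice the diets overlapped for all 6 genes in both depots; 0.00793% of all genes were wholly higher on the high-fat diet in BAT and 0% in WAT, 16 against 16 libraries.

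In SM/J WAT, Slc15a2 was 2.79-fold higher on the high-fat diet at 30 weeks without overlap, 70.1 ± 26.3 against 23.7 ± 5.05 CPM (SD, n = 8 each), where 0.627% of genes were; with TMM scaling factors it overlapped. Sctr and Lvrn had lower means on the high-fat diet there and overlapped.

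By strain, the high-fat BAT of SM/J lay wholly above that of LG/J at 30 weeks for Slc15a2 (5.15-fold), Proser2 (2.34-fold) and Lvrn (2.09-fold), against 8.53% of genes, in libraries that chose the genes. At 20 weeks none of the 6 did, against 9.3% of genes. Those 20-week SM/J libraries also chose the genes, by being low, so nothing is read from the contrast between the ages. On the low-fat diet Proser2 was wholly higher in SM/J BAT at 30 weeks (9.08 ± 1.45 against 5.60 ± 1.61 CPM, SD, n = 8 each; 1.65-fold), against 3.08% of genes higher and 9.12% lower, or 5.37 and 4.42% with TMM scaling factors. Cdsn in low-fat BAT had means of 17.9 CPM in SM/J and 35.7 CPM in LG/J mice, with overlap, where 2.49% of genes were wholly lower in SM/J. In high-fat WAT the 16 SM/J libraries of Ehd3 all lay below the 16 of LG/J (44.7 against 124.8 CPM), where 2.05% of genes did.

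Sex was the contrast in which the most values passed a test, and it was not used to choose the genes. Of 47 tests of males against females, 8 passed (limma-trend, adjusted p over all genes of a table), 7 of them in WAT, and 23 had an unadjusted p below 0.05, as 14.5 to 30.8% of all genes did by table. WAT here is the reproductive depot, which lies by different organs in females and males. In WAT, sex and the site of the fat therefore cannot be told apart. The share of all genes called, in either direction, was, in WAT, 6.87 and 13.2% in SM/J mice on the high- and low-fat diets, and 10.6 and 4.05% in LG/J mice. In BAT it was 0.0226 and 10.6% in SM/J mice on the high- and low-fat diets, and 3.2 and 2.02% in LG/J mice.

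Slc15a2 was lower in male WAT in 3 of 4 tables by this test. In SM/J high-fat WAT females had 64.3, 69.7, 99.6 and 104.4 CPM at 20 weeks and 91.7, 92.8, 94.1 and 94.7 CPM at 30 weeks. Males had 30.8, 38.6, 60.9 and 63.0 CPM and 35.2, 41.8, 44.9 and 66.0 CPM, so that 1 male lay above the lowest female. The means were 88.9 ± 14.2 and 47.6 ± 13.7 CPM (SD, n = 8 each), a log2 difference of -0.92 (SE 0.149, limma-trend adjusted p = 0.000702). The difference was -0.52 (SE 0.0877, adjusted p = 0.00179) in SM/J low-fat and -1.16 (SE 0.281, adjusted p = 0.0205) in LG/J high-fat WAT, each with 0 of 8 males above the female median. In LG/J low-fat WAT it was -0.54 (SE 0.193, limma-trend adjusted p = 0.128), and in SM/J high-fat BAT -0.71 (SE 0.220, adjusted p = 0.162).

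Lvrn was higher in males, with 3.08 ± 1.62 CPM in females and 5.97 ± 1.27 CPM in males in SM/J high-fat WAT (SD, n = 8 each; 1.12, SE 0.284, limma-trend adjusted p = 0.021). In LG/J low-fat WAT Lvrn stood at 10.8 ± 6.16 and 23.0 ± 8.23 CPM (1.15, SE 0.306, limma-trend adjusted p = 0.046), and it passed in only 2 of the 16 fits that left out 1 library each. Proser2 was likewise higher in males there, 1.30 ± 0.465 against 2.27 ± 0.513 CPM (0.76, SE 0.201, limma-trend adjusted p = 0.0445), and passed in 4 of those 16 fits. In LG/J low-fat BAT Proser2 had an estimate of 0.62 (SE 0.159, limma-trend adjusted p = 0.0522).

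Ehd3 was lower in males in LG/J low-fat WAT, 141.6 ± 30.0 CPM in females and 94.5 ± 16.1 CPM in males (SD, n = 8 each; -0.64, SE 0.119, limma-trend adjusted p = 0.00764), with 0 of 8 males above the female median. Sctr was higher in males in SM/J low-fat BAT, 5.32 ± 2.20 against 9.06 ± 2.67 CPM (0.75, SE 0.173, limma-trend adjusted p = 0.0164), with 8 of 8 males above the female median. Among those libraries, 7 of 12 skeletal muscle markers were lower in males by the adjusted test, with sums of 6.90 to 980 CPM in females and 3.74 to 677 CPM in males. There 6 of 12 macrophage markers (199 to 486 against 382 to 721 CPM) and 6 of 8 fibroblast markers (472 to 1134 against 1088 to 1809 CPM) were higher in males. The part of these cells in the Sctr difference was not tested. Cdsn passed in no table; its nearest value was in SM/J low-fat WAT (1.70 ± 1.04 against 3.16 ± 1.02 CPM, limma-trend adjusted p = 0.0506).

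Macrophage markers also differed by sex in WAT. Their summed level was 1151 to 2195 CPM in females and 2295 to 8927 CPM in males of SM/J low-fat mice, where 11 of the 12 markers were higher in males by the adjusted test, and 1363 to 2545 and 1201 to 3971 CPM in LG/J high-fat mice. In SM/J high-fat WAT, where the sex difference of Slc15a2 had its lowest p, the sums were 3748 to 4859 CPM in females and 2978 to 4681 CPM in males, and 3 of 12 markers, Adgre1 (-0.37), Mrc1 (-0.34) and C1qa (-0.41), were lower in males by the adjusted test. None of 8 epididymal markers was listed in any WAT table, and at most 1 of 8 ovarian and oviductal markers was. The part of macrophages in the sex differences was not tested.

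**Figure D4:**
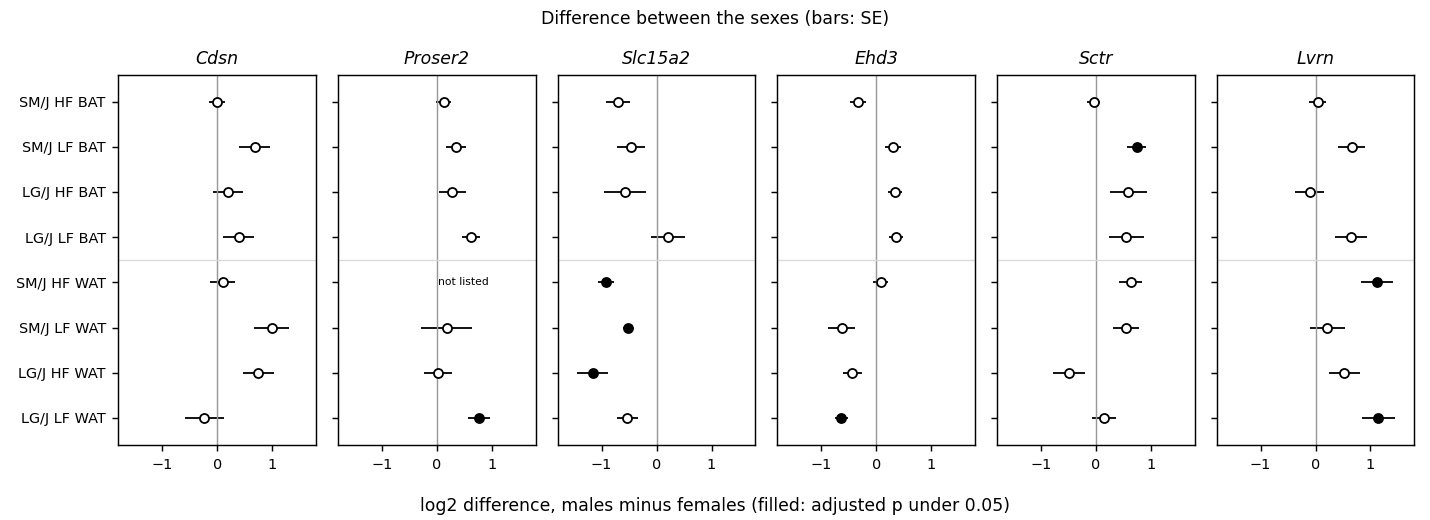
Log2 difference of males minus females (± SE, limma-trend) for each gene in each table, filled where the adjusted p was below 0.05. The 3 filled points of Slc15a2 lie between -1.16 and -0.52, and the 2 of Lvrn at 1.12 and 1.15.

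Relatives of the 6 genes were counted from lists of their pathways. With age, no member of the desmosome, peptide transport, endocytic recycling, secretin-type receptor, cyclic AMP and lipolysis, M1 aminopeptidase or brown adipocyte lists passed in any of the 8 tables. Few genes of any kind did: 193 of 13252 in SM/J high-fat BAT, 5 (0.0358%) in SM/J high-fat WAT and 0% in the other tables. Nothing about the lists is therefore read from this. In SM/J high-fat BAT only 3 of 16 desmosome and cornified layer genes were listed, with a median age change of 0.066 against 0.00047 over all genes, and 4 of 14 secretin-type receptors were. One white adipocyte gene, Nnat, the imprinted neuronatin gene, rose there (1.05, SE 0.229, limma-trend adjusted p = 0.0333).

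The relatives were also counted by sex. In SM/J low-fat WAT, where Slc15a2 was lower in males, its relatives Slc15a3 (1.94, SE 0.387, limma-trend adjusted p = 0.00412) and Slc15a4 (0.51, SE 0.0920, adjusted p = 0.00247), lysosomal carriers of histidine and peptides, were higher in males. On this list 5 of 8 measured genes were higher and 0 lower, against 8.53 and 4.69% of all genes in that table. In LG/J low-fat WAT, where Ehd3 was lower in males, 1 of 19 measured recycling genes was higher and 2 lower, against 4.05% of all genes in either direction; Ehd4, a close relative, was higher in males in SM/J low-fat WAT, SM/J low-fat BAT and LG/J high-fat WAT. On the desmosome list, Dsp, the plaque protein desmoplakin, was higher in males by 2.16 to 2.93 in 3 WAT tables. In one of them, SM/J high-fat WAT, Pkp1, the plaque protein plakophilin, was lower (-2.10, SE 0.255), so that 1 of 5 measured genes was higher and 1 lower, against 6.87% of all genes in either direction. In SM/J low-fat BAT, where Sctr was higher in males, Prkar2b (-0.32), Adcy3 (-0.37) and Pde3b (-0.35) of the cyclic AMP list passed as lower. No gene of that list passed as higher there, and 10.6% of all genes passed in either direction. How many genes of that list were measured is not given here, so its share is not set against that one and nothing is read from it. On the M1 list, only Trhde (-0.82) passed in SM/J high-fat WAT and only Rnpep (0.37) in LG/J low-fat WAT. Lvrn was higher in males in both, where 6.87 and 4.05% of all genes passed.

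The genes were then compared over the 48 BAT libraries outside SM/J high-fat BAT, after the mean of each group of 4 was removed, so that strain, diet, age and sex do not enter. Libraries of a table were deposited together. The relations with Lep and Ucp1 in both depots and among the 6 genes in BAT make 39, with p from 100000 permutations within groups and Benjamini-Hochberg adjustment over the 39.

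Lep, leptin, varied in BAT with 4 of the 6 genes. Pearson's r was 0.78 for Proser2 and 0.72 for Sctr, with permutation p = 1e-05 for each, the smallest these permutations can give (adjusted p = 0.00013), and Spearman's rho 0.79 and 0.76 with the same p. Cdsn had r = 0.69 (permutation p = 4e-05, adjusted p = 0.000223) and rho = 0.66 (p = 0.00015), and Ehd3 r = 0.61 (permutation p = 0.00011, adjusted p = 0.00039) and rho = 0.62 (p = 0.00021). Without the 2 libraries furthest from the median of Lep, r was 0.79, 0.71, 0.63 and 0.60 for Proser2, Sctr, Cdsn and Ehd3. Within single tables r ran from 0.48 to 0.89 for Proser2, 0.67 to 0.77 for Sctr, 0.53 to 0.93 for Cdsn and 0.32 to 0.87 for Ehd3. Slc15a2 (r = 0.40, rho = 0.35, permutation adjusted p = 0.063 and 0.0729) and Lvrn (r = 0.27, rho = 0.17, adjusted p = 0.271 and 0.406) did not pass. For scale, r with Lep over 10269 genes in these libraries had a median of 0.0766 and lay between -0.365 and 0.462 for the middle 90%.

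Cdsn was the one gene of the 6 that passed with Ucp1 in BAT, and inversely (r = -0.55, permutation p = 9e-05, adjusted p = 0.000351; rho = -0.56, p = 0.00019). It was -0.61 without the 2 libraries furthest from the Ucp1 median and ran from -0.77 to -0.47 within tables, where the middle 90% of genes lay between -0.502 and 0.417.

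Among themselves, 8 of the 15 pairs passed in BAT. Ehd3 and Proser2 had the highest r, 0.79 (permutation p = 2e-05, adjusted p = 0.000156; rho = 0.79, p = 3e-05), then Cdsn and Proser2, 0.71, Cdsn and Ehd3, 0.66, and Cdsn and Sctr, 0.62, each with an adjusted permutation p of 0.000351 or lower and a rho of 0.62 to 0.70 (p = 1e-05 to 0.00019). Without 2 libraries they were 0.78, 0.72, 0.69 and 0.60. Slc15a2 and Lvrn varied with each other (r = 0.69, permutation p = 9e-05, adjusted p = 0.000351; rho = 0.65, p = 2e-05; 0.58 without 2 libraries), but neither passed with Cdsn or Sctr. Proser2 with Sctr (r = 0.59, permutation adjusted p = 0.00107; rho = 0.63, adjusted p = 0.000634), Ehd3 with Sctr (r = 0.52, adjusted p = 0.0097; rho = 0.54, adjusted p = 0.00495) and Slc15a2 with Proser2 (r = 0.45, adjusted p = 0.0127; rho = 0.44, adjusted p = 0.0131) passed at lower values, and without 2 libraries they were 0.52, 0.41 and 0.48. Over 10270 genes in these libraries, r lay below 0.501 for Cdsn, 0.457 for Slc15a2, 0.51 for Ehd3, 0.505 for Sctr and 0.473 for Lvrn in 95% of genes, so that Slc15a2 with Proser2 lay within the range of most genes and Ehd3 with Sctr just above it.

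In the 64 WAT libraries 2 genes passed with Lep, both with a negative r. Sctr had r = -0.66 (permutation p = 3e-05, adjusted p = 0.000195; rho = -0.63, p = 4e-05) and -0.57 without the 2 furthest libraries, and it was negative in each table, from -0.86 to -0.26. Lvrn had r = -0.47 (permutation p = 0.00079, adjusted p = 0.00237; rho = -0.43, p = 0.00203), but within tables it ran from -0.81 to 0.12. Cdsn (r = 0.48, permutation p = 0.00171, adjusted p = 0.00476; rho = 0.52, p = 0.00031) and Sctr (r = 0.45, p = 0.00493, adjusted p = 0.012; rho = 0.49, p = 0.00098) varied with Ucp1 in WAT, and r was 0.45 and 0.44 without the 2 furthest libraries. Slc15a2 with Ucp1 in WAT passed by rho (-0.33, permutation adjusted p = 0.0496) but not by r (-0.28, adjusted p = 0.148). Over all genes in WAT r with Lep was widely spread, the middle 90% lying between -0.573 and 0.649. For r with Ucp1 in WAT the middle 90% lay between -0.352 and 0.306. Whether any relation differs between BAT and WAT was not tested.

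**Figure D5:**
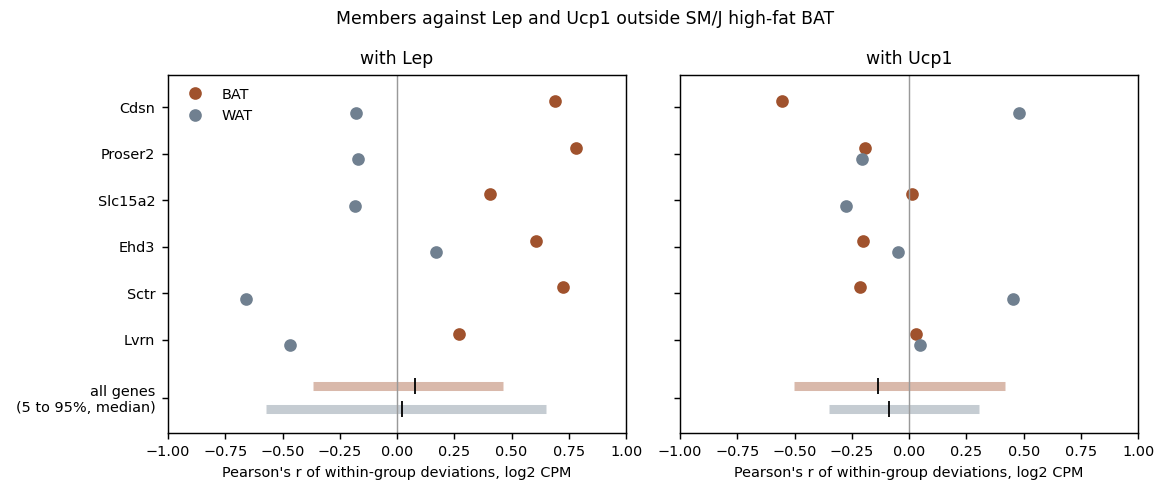
Pearson r of each gene's deviation from its group mean with that of Lep and of Ucp1, in 48 BAT and 64 WAT libraries (48 WAT for Proser2) outside SM/J high-fat BAT; bars span the middle 90% of 10269 genes. With Lep, 4 genes lie above the bar in BAT (0.61 to 0.78) and Sctr lies below it in WAT (-0.66). With Ucp1, Cdsn lies below the bar in BAT (-0.55), and Cdsn (0.48) and Sctr (0.45) lie above it in WAT.

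The genes most like each of the 6 were found by the same Pearson r over all libraries of both depots outside SM/J high-fat BAT, among 10270 genes, as a description. For Cdsn they were Chst15 (0.56), Epb41l1 (0.56) and Mturn (0.54). For Slc15a2 they were Cd163 (0.72), a scavenger receptor of macrophages, Chp2 (0.71) and Abca9 (0.66). For Ehd3 they were Rap1gap2, Ccdc9b and Stc2 (each 0.59). For Sctr they were Nnat (0.71), Amotl2 (0.70) and Aoc3 (0.70), and for Lvrn Spock2 (0.65), Tmtc1 (0.63) and Sulf1 (0.59). For Proser2, over 96 libraries, they were Tpm1 (0.76), Csrp1 (0.73) and Synpo2 (0.70), which encode tropomyosin and other actin-associated proteins of muscle. Without replicate 699 these 3 were at 0.67, 0.68 and 0.51 in WAT, and in BAT they were at 0.69, 0.55 and 0.74. Replicate 631, the other SM/J low-fat WAT library with a high smooth muscle sum (6445 CPM), was kept in the WAT values.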

How the data were processed

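Total RNA of 128 mouse adipose libraries was prepared with a RiboZero kit, per the labels' protocols. Reads were processed with STAR 2.6.0c, mm10 and edgeR, per the submitters' processing notes. The deposited values are the authors' normalised counts (a signal never below 0, not whole reads), 1 table per strain, diet and tissue; how they were scaled is not given in the sources used here. Whole reads were not recovered, so depth in reads is unknown and no counting interval is given. The SM/J high-fat BAT table has 2 decimals where the others have 9, and its row order follows the p of its age contrast (Spearman 0.969).

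CPM is the deposited value divided by the library total, times 1000000; 0.1 was added before log2. Age and sex were fitted together per table with limma 3.58.1 (limma-trend, R 4.3.3) on log2(value + 1), with Benjamini-Hochberg adjusted p below 0.05 over all genes of a table; fold changes on this scale understate low genes. Depot differences of the age change were fitted over both tables of a strain and diet. Overlap of libraries replaces a test between tables. Other steps used Python 3.11.15, pandas 2.3.3 and numpy 2.4.6, and the fits were tested on simulated data. Replicates are labelled biological.

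The 6 genes, the gene lists and the tests were chosen with earlier results of these data known; tests between sexes of the age change, the smooth muscle list and the relations with Lep and Ucp1 were added after values were seen. Named besides the 6 genes were the 3 most alike to each, family members passing a test, the closest Slc15a and Ehd relatives, Ucp1 and Lep. Alternatives were a pseudocount of 10, a mean of at least 100, other scalings, each sex alone and leaving out each library. Sequences of Sctr and Lvrn promoters and genes on X, Y and the mitochondrial genome are not analysed here.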

Additional observations from a re-analysis of the deposited data

Results flagged for a closer look

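Within each group of 4 libraries, the highest or lowest value was compared with the rest by its gap over the group's range against Dixon's 95% critical value. Of 188 groups over the 6 genes, 14 had such a library. Chance gives about 1 in 20 for independent groups of normally distributed values. The gaps were taken on CPM without logs and the groups of different genes share libraries, so the 14 are not set against that rate.

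In BAT, Slc15a2 was 6.51 CPM in the 20-week male replicate 403 of LG/J high-fat mice (0.724 to 1.62 CPM in the other 3), and Lvrn was 6.19 CPM in that same library (1.17 to 1.50 CPM in the others). Lvrn was also 5.98 CPM in the 20-week female replicate 862 of SM/J high-fat BAT (4.17 to 4.35 CPM in the others).

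In SM/J WAT, Proser2 was 14.7 CPM in the 20-week low-fat female replicate 699 (1.39 to 1.60 CPM in the others), Ehd3 was 59.9 CPM in the 30-week high-fat female replicate 646, and Sctr was 7.56 CPM in the 20-week high-fat male replicate 734.

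In LG/J high-fat WAT, the 20-week female replicate 517 was high for Slc15a2 (42.3 CPM against 16.3 to 18.6 CPM) and for Proser2 (2.88 CPM against 0.845 to 1.12 CPM). The 30-week male replicate 537 was high for Sctr (23.7 CPM against 5.41 to 8.32 CPM) and for Lvrn (23.0 CPM against 12.6 to 14.1 CPM).

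In LG/J low-fat WAT, 20-week males held a low Slc15a2 value of 8.47 CPM (replicate 535) and a low Ehd3 value of 79.8 CPM (replicate 534). Proser2 was 3.13 CPM in the 30-week male replicate 482, and Sctr was 20.4 CPM in the 30-week female replicate 690.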

How the results depend on the processing

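Each sex alone changed the age results most. Genes called numbered 3 (females) and 1 (males) in SM/J high-fat BAT against 193 with both, 498 in SM/J low-fat BAT females (2 of the 6 genes, Ehd3 and Proser2) against 0, 2 in LG/J low-fat BAT males, and 0 (females) and 1 (males) in SM/J high-fat WAT, where 5 were called with both, 3 with a mean of at least 100 and 2 with quantile normalization. In SM/J low-fat BAT the age change turned negative for Slc15a2 (-0.072) and Lvrn (-0.33) in females and for Proser2 (-0.062) in males. Leaving out 1 library gave 64 to 609 genes called with age in SM/J high-fat BAT, 0 to 258 in SM/J low-fat BAT (0 to 1 of the 6), 1 to 9 in SM/J high-fat WAT, and -0.10 to 0.18 for Lvrn in SM/J low-fat BAT. For sex, SM/J high-fat BAT gave 0 genes with a mean of at least 100, 5 with equal totals and 0 with quantile normalization; of the 6 genes, equal totals gave 1 in LG/J low-fat BAT and 2 in SM/J low-fat WAT, quantile normalization 1 in LG/J low-fat BAT and 1 in LG/J low-fat WAT, and a mean of at least 100 gave 1 in SM/J high-fat WAT. Leaving out 1 library gave for sex 1 to 305 genes in SM/J high-fat BAT, 532 to 1836 (1 to 3 of the 6) in SM/J low-fat BAT, 176 to 700 in LG/J high-fat BAT, 72 to 811 (0 to 1) in LG/J low-fat BAT, 1323 to 2860 (1 to 3) in SM/J low-fat WAT, 627 to 3562 (1 to 2) in LG/J high-fat WAT and 305 to 693 (1 to 3) in LG/J low-fat WAT. TMM scaling left 0 of the 6 genes wholly higher on the high-fat diet in SM/J WAT at 30 weeks and 1 wholly lower in BAT than WAT of LG/J high-fat mice at 30 weeks. The cause of these changes was not tested. For depot differences, leaving out 1 number gave 0 to 2 genes called in SM/J low-fat and 0 to 1 in LG/J low-fat mice. With the replicate number as a block, 0 genes passed in the 3 sets, as without it, and Sctr in SM/J low-fat mice had a limma-trend adjusted p of 0.660. Same-numbered BAT and WAT libraries correlated with a median r of 0.202, 0.191, 0.123 and 0.132 and a lowest of 0.0473, -0.0676, 0.00609 and -0.269 in the 4 sets. In these, 13, 12, 10 and 9 of 16 correlated best with their own number. Most libraries thus matched their number, but the labels do not tie numbers to an animal, and the main test did not pair them. With the block, the unadjusted limma-trend p was 0.0139 for Ehd3 in LG/J low-fat mice (0.0511 without it). For Sctr in SM/J low-fat mice it was 0.0386 (0.0277 without it). All genes with an unadjusted p below 0.05 went from 628 to 924 in SM/J low-fat and from 442 to 508 in LG/J low-fat mice. Values per number are a description.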
